A study of Mus musculus with 28 samples.

Results

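The neurofilament genes are Nefh, Nefm, Nefl and Ina, which encode the heavy, medium and light neurofilament subunits and alpha-internexin. They were chosen by name, and all 4 had an entry among the 41549 genes of the deposited tables. Neurofilaments are the intermediate filaments of neurons and are most plentiful in thick myelinated axons, where they set the calibre of the axon. The light subunit and alpha-internexin form the core of the filament, while the medium and heavy subunits carry long tails that project from it and are phosphorylated in the axon. In the cortex, the heavy subunit is known as a protein of large projection neurons and of fast-spiking interneurons.

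The RNA came from nuclei sorted out of motor cortex in 7 mice (animals 17 to 23). Each mouse received 2 AAV vectors that carry the nuclease Cas9, AAV-Cas9-miR-124-empty in the left hemisphere and AAV-Cas9-miR-124-g4 in the right, called empty and g4 here. Side and vector therefore coincided in every mouse and cannot be told apart. Nuclei stained for the HA tag of Cas9 were sorted, so that each mouse gave 4 libraries, an HA-positive and an HA-negative one from each side. This made 4 groups of 7 libraries, 28 in all, named by vector and fraction. Every mouse thus had Cas9 vectors on both sides, also in the controls, and HA-negative nuclei came from injected tissue. The sources used here do not give strain, age, sex, the promoter of the vectors or what g4 stands for.

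Depth set the precision for these genes. The libraries held 248612 to 902944 counts and 8687 to 13668 detected genes, and 4 HA-positive libraries had fewer than 10000 genes (3 empty and 1 g4). Ribosomal RNA took 17% to 40.4% of the counts. A member had between 3 and 165 counts in a library, and the lowest counts were those of Nefh in HA-negative nuclei. The g4 HA-positive library of animal 19 stood apart in oligodendrocyte transcripts, with 1421 CPM summed over 10 oligodendrocyte markers against a group median of 152 CPM. CPM are counts per 1000000 of the library total after TMM scaling. The tests of the members, the lists, the length-scaled levels and the likeness and relations between genes were also computed without that library; for all but the tests of the members this was chosen after the data were seen.

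Nefh (ENSMUSG00000020396) lies on the minus strand of chromosome 11, from 4938754 to 4948064 in GRCm38, and overlaps no other annotated gene. Its coding sequence of 3273 bases holds 51 in-frame runs of the codons for lysine, serine and proline, the repeat that is phosphorylated in the tail of the heavy subunit. The coding sequence of Nefm holds 4 such runs, and those of Nefl and Ina hold 0. The longest stretch that occurs more than once in the Nefh coding sequence is 121 bases, starting at bases 1747 and 1909 from the start codon. A read that lies inside such a stretch cannot be placed at 1 position within the gene, but it still belongs to Nefh. The stretch is shown because it is the sequence feature that most separates Nefh from the other members, with the bases of the lysine, serine and proline codons in capitals.
Nefh repeat: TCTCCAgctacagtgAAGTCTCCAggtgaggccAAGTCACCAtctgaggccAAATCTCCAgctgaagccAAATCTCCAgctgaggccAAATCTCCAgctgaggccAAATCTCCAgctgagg

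Nefm (ENSMUSG00000022054) and Nefl (ENSMUSG00000022055) lie on chromosome 14 on opposite strands. Nefm spans 68082590 to 68124846 on the minus strand, and Nefl spans 68083863 to 68089095 on the plus strand. The shorter of the 2 Nefm transcripts, of 3334 bases, ends before Nefl, but the longer one, of 3680 bases, reaches across the whole of Nefl and shares 1108 exonic bases with it on the other strand. Since the strand setting of the counting is not given in the sources used here, reads from those bases cannot be assigned with certainty to either gene. Ina (ENSMUSG00000034336) lies on the plus strand of chromosome 19, from 47014698 to 47025327, and its span overlaps that of Nt5c2, on the other strand, by 456 bases.

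The coding sequences of the members share only short identical runs. These are shown as a description of how alike the coding sequences are. They do not bound how many reads could be placed on the wrong member, since UTRs and the longer Nefm transcript were not compared. The longest, between Nefh and Nefm, is 23 bases. Nefh and Ina share at most 20 bases, Nefm and Ina 19, Nefm and Nefl 17, Nefh and Nefl 14, and Nefl and Ina 13.
Nefh and Nefm: aacgtcaagatggccctggacat
Nefh and Ina: cgagaaggagcagctgcagg
Nefm and Nefl: gccgaagagtggttcaa

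The vector names carry that of miR-124, a microRNA abundant in neurons that pairs through its seed with sites in 3′ UTRs. The longest annotated 3′ UTR of each member was searched on its own strand for the letters GTGCCTT and TGCCTTA, which overlap where both occur. Nefh, Nefl and Ina held 0 matches in 3′ UTRs of 591, 1648 and 1677 bases. Nefm held 2 matches to GTGCCTT in a 3′ UTR of 2234 bases, which belongs only to the longer transcript and lies across Nefl. At least 1 match was present in 19.7% of the 21022 genes with a 3′ UTR, and in 29.4% of the 2986 with a 3′ UTR of like length to that of Nefm. A match is a description of these letters and not a site shown to be used. The Nefm matches are on the minus strand at chr14:68084233-68084239 and chr14:68082994-68083000 and are shown with the matched bases in capitals.
Nefm match at base 585 of the 3′ UTR: gtcctgcagctGTGCCTTctcttgtgtgc
Nefm match at base 1824 of the 3′ UTR: agaacttcaggGTGCCTTtatcctcactg

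Nefh was higher in HA-positive than in HA-negative nuclei with both vectors, by 5.32-fold with the empty vector and 3.26-fold with g4, and it was the only member that passed the test in any comparison. None of the members passed the test between the vectors in either fraction. Fewer nuclei of a type and less RNA in each nucleus cannot be told apart in such bulk libraries.

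In empty HA-positive nuclei, Nefh ranged from 53.4 CPM in animal 22 through a median of 82.6 CPM to 105 CPM in animals 17 and 21. In empty HA-negative nuclei it ranged from 7.86 through a median of 11.5 to 37.1 CPM. The groups did not overlap, and the highest HA-negative library, that of animal 22, came from the animal with the lowest HA-positive one. The means were 79.1 ± 21.2 and 14.6 ± 10.1 CPM (SD, n = 7 in each group). The log2 fold change was 2.41 ± 0.36 (SE), with a 95% interval of 1.68 to 3.14 and an adjusted p of 2.38e-05 by edgeR's quasi-likelihood test with Benjamini-Hochberg adjustment over all genes tested. Nefh was higher in the HA-positive nuclei of 7 of 7 animals. Of the 5538 genes tested, 3.5% were called higher in HA-positive nuclei, and for 1.32% the groups did not overlap in that direction. Nefh passed the filter on low counts through its HA-positive libraries, so that only a gene with a level of that kind could enter the comparison.

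With the g4 vector, Nefh ranged in HA-positive nuclei from 35.2 CPM in animal 22 through a median of 67.4 CPM to 93.3 CPM in animal 18. In g4 HA-negative nuclei it ranged from 4.28 through a median of 16 to 44.8 CPM. The groups overlapped, because the HA-negative libraries of animals 18 and 20, at 42.1 and 44.8 CPM, lay above the HA-positive library of animal 22. Within each animal the HA-positive library was nevertheless the higher in 7 of 7. The means were 64.5 ± 18.7 and 21 ± 16.9 CPM (SD, n = 7). On the log2 scale the difference was 1.71 ± 0.38 (SE), with a 95% interval of 0.92 to 2.49 and an edgeR adjusted p of 0.00501. Of the 6264 genes tested, 3.32% were called higher in HA-positive nuclei. For 1.07% the groups did not overlap in that direction, Nefh not among them. As with the empty vector, Nefh passed the filter on low counts through its HA-positive libraries.

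**Figure D1:**
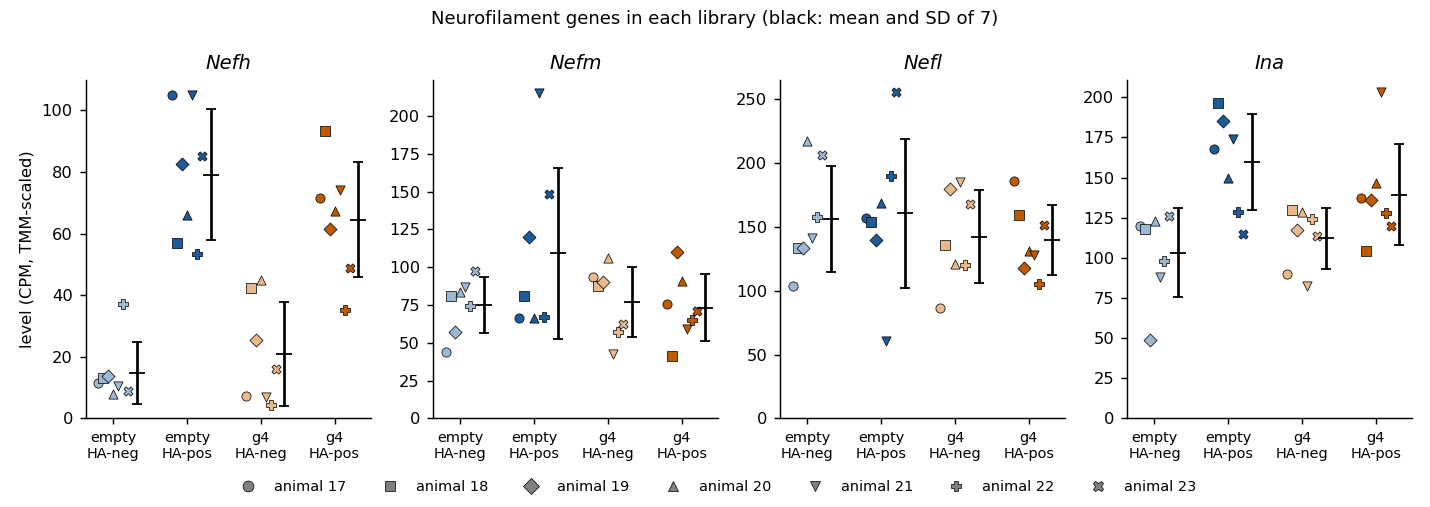
Levels of the 4 neurofilament genes (vertical axis, CPM after TMM scaling, 1 scale per gene) in the 4 groups, with 1 point per library, a symbol per animal, and the mean and SD of 7 libraries in black. The empty HA-positive points of Nefh, at 53.4 to 105 CPM, all sit above the empty HA-negative points, at 7.86 to 37.1 CPM, while the groups of Nefm, Nefl and Ina overlap.

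Ina, a core subunit that appears early in neuronal development, was 115 to 197 CPM in empty HA-positive nuclei, with a median of 168 CPM. In empty HA-negative nuclei it was 49.1 to 126 CPM, with a median of 118 CPM. The groups overlapped, with the HA-negative median above the lowest HA-positive value, and Ina was higher in HA-positive nuclei in 6 of 7 animals. The log2 fold change was 0.63 ± 0.20 (SE), with a 95% interval of 0.22 to 1.05 and an edgeR adjusted p of 0.0544, which misses the threshold of 0.05. With DESeq2 the adjusted p was 0.0296, with limma voom 0.0352 and with all 28 libraries in 1 model 0.0254, and without animal 23 it was 0.0427. Over all alternatives the adjusted p ran from 0.0254 to 0.213.

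With the g4 vector, Ina was 104 to 203 CPM in HA-positive nuclei, with a median of 136 CPM, and 82.2 to 130 CPM in HA-negative nuclei, with a median of 117 CPM. The ranges overlapped, and the HA-positive library was the higher in 6 of 7 animals. Ina had a log2 fold change of 0.33 ± 0.17 (SE), with a 95% interval of -0.01 to 0.67 and an edgeR adjusted p of 0.299.

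Nefm, whose product shares the phosphorylated tail repeat with the heavy subunit, was 66.1 to 215 CPM in empty HA-positive nuclei, with a median of 81.1 CPM. It was 43.7 to 97.4 CPM in empty HA-negative nuclei, with a median of 80.6 CPM. The medians were thus close, and the difference in the means, 109 ± 56.5 against 74.8 ± 18.5 CPM (SD, n = 7), came with 3 high HA-positive libraries, those of animals 19, 21 and 23. The log2 fold change was 0.52 ± 0.27 (SE), with a 95% interval of -0.03 to 1.07 and an edgeR adjusted p of 0.295. Without animal 21 it was 0.30. With the g4 vector, the log2 fold change of Nefm between the fractions was -0.03 ± 0.23 (SE), with a 95% interval of -0.50 to 0.44 and an edgeR adjusted p of 0.968.

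Nefl, the light subunit, was 60.7 to 256 CPM in empty HA-positive nuclei and 104 to 218 CPM in empty HA-negative nuclei. The medians were 157 and 141 CPM. The HA-positive libraries held both the lowest value, in animal 21, and the highest, in animal 23. Nefl had a log2 fold change of 0.04 ± 0.22 (SE), with a 95% interval of -0.41 to 0.49 and an edgeR adjusted p of 0.949. With g4 it was -0.04 ± 0.17 (SE), with a 95% interval of -0.38 to 0.31 and an edgeR adjusted p of 0.951. Both intervals lie below those of Nefh with the same vector.

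**Figure D2:**
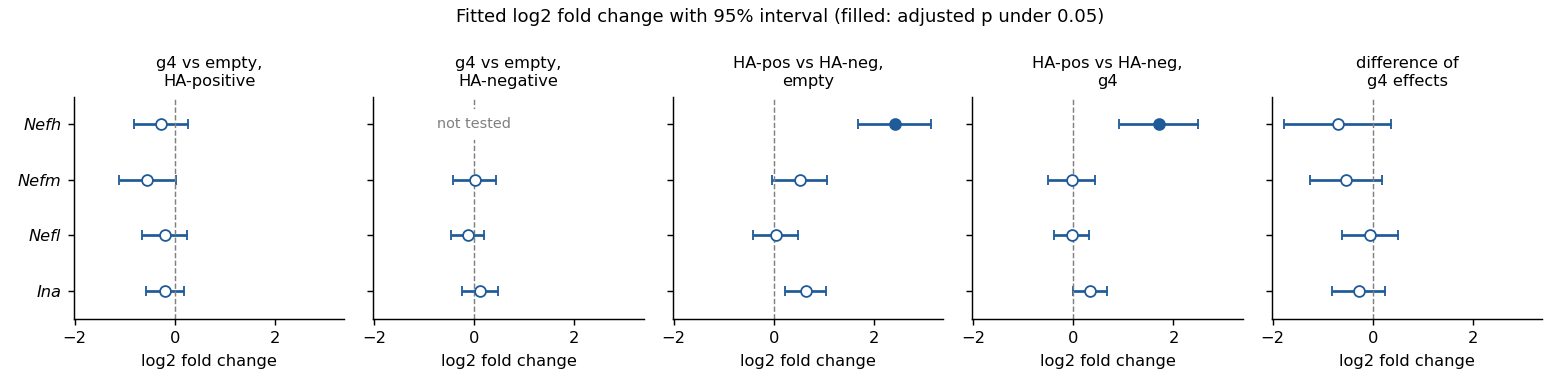
Fitted log2 fold change (horizontal axis) of each neurofilament gene in the 5 comparisons, with bars for the 95% interval and filled points for an adjusted p under 0.05 by edgeR. Nefh is filled in both comparisons of the fractions, at 2.41 and 1.71, and every other interval but that of Ina with the empty vector includes 0.

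Markers of cell types also differed between the fractions. Of 14 markers of interneurons, 13 were tested with the empty vector, and 11 rose in HA-positive nuclei and 0 fell, beside 3.5% of all genes tested in each direction. Their median log2 fold change was 1.66, against 0.01 over all genes tested. The summed level of the 14 was 3036 to 4976 CPM in empty HA-positive libraries and 1030 to 1410 CPM in empty HA-negative ones. With g4, 12 of 13 rose and 0 fell, beside 3.32% and 3.08% of all genes, with a median of 1.67, and the sums were 2140 to 4046 and 899 to 1367 CPM. Pvalb, the calcium-binding protein that marks fast-spiking interneurons, was 109 ± 43.3 CPM in empty HA-positive and 15.5 ± 12.2 CPM in empty HA-negative nuclei (SD, n = 7). Syt2, a synaptotagmin of fast-spiking terminals, was 196 ± 90.7 and 35.1 ± 16.9 CPM in the same groups. In g4 nuclei, Pvalb was 23.9 to 123 CPM in HA-positive and 7.99 to 27.6 CPM in HA-negative libraries, and these ranges overlapped. Syt2 was 41.6 to 123 and 13 to 33.6 CPM there. The list of 14 also holds markers of other interneurons, whose single levels are not given here. The part of interneuron nuclei in the difference in Nefh was not tested.

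Layer 5 projection neurons are also known for the heavy subunit. With the empty vector, 5 of 9 markers were tested. Of these, 1 rose in HA-positive nuclei and 2 fell, beside 3.5% of all genes in each direction. Pcp4 fell by 1.81 ± 0.26 and Bcl11b by 1.50 ± 0.29 on the log2 scale (SE), with edgeR adjusted p of 1.76e-05 and 0.000836, and Parm1 rose by 1.08 ± 0.26 (adjusted p 0.00775). With g4, 7 were tested, of which 1 rose and 3 fell, beside 3.32% and 3.08% of all genes. The summed level of the 9 markers was 269 to 504 CPM in empty HA-positive and 483 to 811 CPM in empty HA-negative libraries. Summed markers of striatal projection neurons were also lower in empty HA-positive libraries, at 75.1 to 276 against 537 to 1364 CPM. The part of striatal nuclei in the values of Pcp4 and Bcl11b was not tested. Of 12 markers of excitatory neurons, 1 rose and 3 fell with the empty vector, beside 3.5% of all genes in each direction. With g4, 0 of the 12 rose and 2 fell, beside 3.32% and 3.08% of all genes. The sums of the 12 were 1104 to 1995 CPM in empty HA-positive and 1679 to 2355 CPM in empty HA-negative libraries.

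Oligodendrocyte, microglia and striatal markers were lower in HA-positive nuclei. As for the lists above, a marker is said to fall where it was called lower. Of all genes tested, 3.5% were called lower with the empty vector and 3.08% with g4. Within HA-positive libraries, 2 of 10 oligodendrocyte, 0 of 9 microglia and 2 of 8 striatal markers passed the filter on low counts. Most of those tested between the fractions thus passed it through their HA-negative libraries, so that the filter itself favoured markers that fell. With g4, 0 of 7 oligodendrocyte, 0 of 6 microglia and 1 of 6 striatal markers had a fitted value above 0. All 6 tested oligodendrocyte markers fell with the empty vector and 5 of 7 with g4, or 8 of 8 tested without the library of animal 19. Their sums were 41 to 111 CPM in empty HA-positive, 1144 to 1999 CPM in empty HA-negative, 99.4 to 1421 CPM in g4 HA-positive (at most 214 CPM without animal 19) and 1383 to 2580 CPM in g4 HA-negative libraries. All 5 tested microglia markers fell with the empty vector and 4 of 6 with g4, or 6 of 6 without the library of animal 19, and 4 of the 9 listed were at 0 in every empty HA-positive library. The microglia sums were 6.99 to 44.5 CPM in empty HA-positive, 265 to 600 CPM in empty HA-negative, 2.74 to 335 CPM in g4 HA-positive (at most 40.4 CPM without animal 19) and 399 to 636 CPM in g4 HA-negative libraries. The only oligodendrocyte precursor marker tested fell with the empty vector, as did 2 of 2 with g4. Of 6 astrocyte markers, 1 fell with the empty vector and 0 passed the test with g4, and sums were 647 to 1410 and 1215 to 1575 CPM in empty HA-positive and HA-negative libraries. With g4, 5 of the 6 fitted values were above 0, with a median of 0.24, and the astrocyte sums were 944 to 2641 CPM in HA-positive and 1164 to 1706 CPM in HA-negative libraries. Of the striatal projection neuron markers, 4 of 5 fell with the empty vector and 4 of 6 with g4, and their sums were 75.1 to 276 and 537 to 1364 CPM in the empty fractions. In the g4 fractions the striatal sums overlapped, at 85.1 to 344 CPM in HA-positive (at most 149 CPM without animal 19) and 152 to 1062 CPM in HA-negative libraries. None of the 8 endothelial and mural markers had the counts to be tested, and their sums were at most 40.8 CPM in empty HA-positive and 53.7 CPM in empty HA-negative libraries. How far these nuclei moved the members' levels was not tested.

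Scaled to length, the balance of the 4 genes differed between the fractions. CPM were divided by the length of the gene's merged exons in kilobases so that genes could be compared. In empty HA-positive nuclei, Ina was at 49.2 ± 9.23, Nefl at 47.6 ± 17.3, Nefh at 19.8 ± 5.32 and Nefm at 18.9 ± 9.76 CPM per kilobase (SD, n = 7). Neither Ina and Nefl nor Nefh and Nefm kept 1 order there: Nefl was above Ina in 3 of 7 libraries, and Nefh above Nefm in 4 of 7. In empty HA-negative nuclei, Nefl was at 46.2 ± 12.3, Ina at 31.9 ± 8.55, Nefm at 12.9 ± 3.20 and Nefh at 3.66 ± 2.53 CPM per kilobase. There Nefl was above Ina in 6 of 7 libraries and Nefh above Nefm in 0 of 7.

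In g4 HA-positive nuclei, Ina was at 43 ± 9.67, Nefl at 41.4 ± 8.10, Nefh at 16.2 ± 4.67 and Nefm at 12.7 ± 3.86 CPM per kilobase (SD, n = 7), with Nefh above Nefm in 4 of 7 libraries and Nefl above Ina in 3 of 7. In g4 HA-negative nuclei, Nefl was at 42.1 ± 10.8, Ina at 34.6 ± 5.83, Nefm at 13.3 ± 4.01 and Nefh at 5.25 ± 4.24 CPM per kilobase, with Nefh above Nefm in 0 of 7 and Nefl above Ina in 4 of 7. Nefh was last of the 4 in every HA-negative library. Scaled to merged exons, Nefh and Nefm took the lower places in every HA-positive library but the empty one of animal 21, where Nefl was last. The place of Nefm depends on the length used, as given below. Without the library of animal 19, g4 HA-positive Nefm was at 11.6 ± 2.89 CPM per kilobase (SD, n = 6) and Nefh at 16.3 ± 5.10.

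As a share of the summed length-scaled level of the 4 genes, Nefh took 14.6% ± 3.58 in empty HA-positive and 14.2% ± 3.61 in g4 HA-positive nuclei (SD, n = 7). It took 4.02% ± 2.63 in empty HA-negative and 5.16% ± 3.81 in g4 HA-negative nuclei. Nefl took 35.1% ± 11.7 and 36.6% ± 5.89 in the HA-positive groups and 48.6% ± 6.56 and 44.1% ± 9.64 in the HA-negative ones, in the order empty and g4. The summed level was 135 ± 12.1 CPM per kilobase in empty HA-positive, 113 ± 13.3 in g4 HA-positive, 94.6 ± 19.4 in empty HA-negative and 95.3 ± 14.2 in g4 HA-negative nuclei. The sum was 121 to 158 CPM per kilobase in empty HA-positive and 67.9 to 119 in empty HA-negative libraries. With g4 the fractions overlapped, at 90.9 to 129 and 71.4 to 111 CPM per kilobase. The length of Nefm depends on its transcripts: with the shorter transcript alone, a choice made after the data were seen, Nefm was at 32.7 ± 16.9 CPM per kilobase in empty HA-positive nuclei, and Nefh lay above it in 1 of 7 libraries there, 2 of 7 in g4 HA-positive and 0 of 7 in both HA-negative groups.

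**Figure D3:**
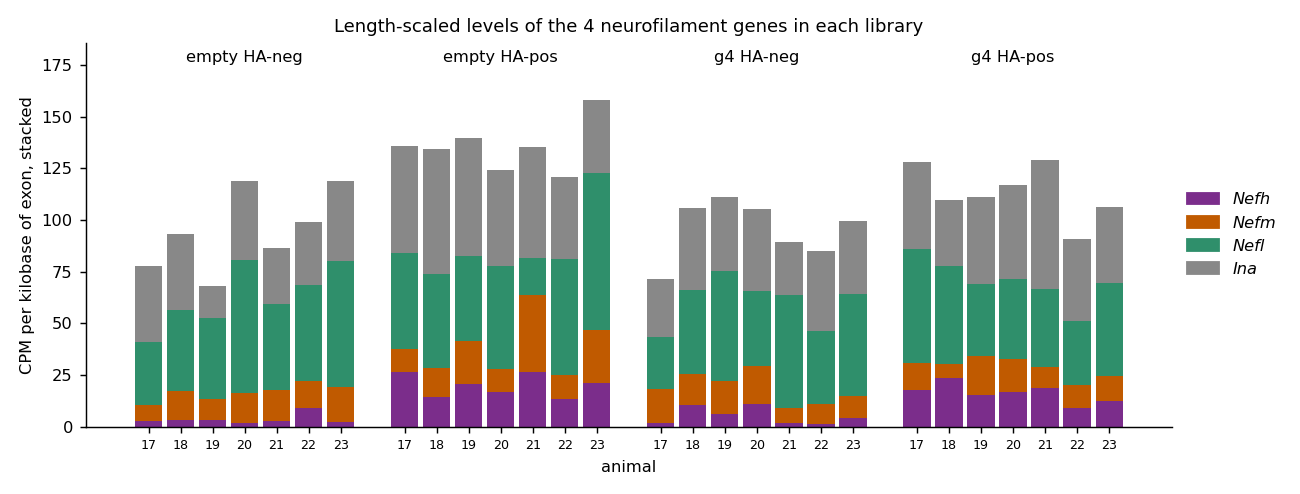
Length-scaled levels of the 4 neurofilament genes (vertical axis, CPM per kilobase of exon, stacked) in each of the 28 libraries, ordered by group and animal. The Nefh segment averages 19.8 and 16.2 CPM per kilobase in the empty and g4 HA-positive groups and 3.66 and 5.25 in the HA-negative ones.

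The series set out to lower microRNAs with Cas9 vectors in the rodent brain, and the comparison of the g4 with the empty vector asks what followed for other transcripts. No neurofilament gene passed the test between them. In HA-positive nuclei, 0 of 4 members were called, beside 0.0599% of the 5011 genes tested (3 genes). All 4 fitted values were below 0, while 49.2% of all genes tested had a value above 0. Nefm had the lowest, -0.54 ± 0.28 (SE) on the log2 scale, with a 95% interval of -1.12 to 0.03 and an edgeR adjusted p of 0.751. Its levels were 41.2 to 110 CPM in g4 and 66.1 to 215 CPM in empty HA-positive nuclei, and 2 of 7 animals had the higher value on the g4 side. Without animal 21, whose empty library was the highest, the value was -0.23.

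The other members differed less. The log2 fold change of g4 against empty in HA-positive nuclei was -0.27 ± 0.27 (SE) for Nefh, with a 95% interval of -0.82 to 0.27, and 2 of 7 animals were higher on the g4 side. For Nefl it was -0.20 ± 0.22, with an interval of -0.65 to 0.25 and 3 of 7 animals higher. For Ina it was -0.19 ± 0.19, with an interval of -0.57 to 0.19 and 2 of 7 animals higher. The edgeR adjusted p-values were 0.902, 0.918 and 0.904. Of the cell type markers, 0 of each list were called in the same comparison. Medians were -0.22 for 14 interneuron markers (4 above 0), 0.42 for 10 excitatory neuron markers (8 above 0), 0.40 for 5 layer 5 markers (5 above 0) and 0.63 for 6 astrocyte markers (6 above 0), against -0.01 over all genes, and their part in the members' values was not tested. The members' intervals bound a fall to less than 1 on the log2 scale for Nefh, Nefl and Ina, and they do not show that the vectors act alike.

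In HA-negative nuclei, 0 of the 3 members tested were called, beside 0% of the 6262 genes tested. Nefm was 42.5 to 106 CPM in g4 and 43.7 to 97.4 CPM in empty nuclei, Nefl 86.4 to 185 against 104 to 218 CPM, and Ina 82.2 to 130 against 49.1 to 126 CPM. All 3 pairs of ranges overlapped over most of their width. The log2 fold changes were 0.01 ± 0.22 for Nefm, -0.13 ± 0.17 for Nefl and 0.11 ± 0.18 for Ina (SE), with 95% intervals of -0.43 to 0.44, -0.47 to 0.20 and -0.25 to 0.48, and edgeR adjusted p-values of 0.998 for each. Nefh had too few counts in HA-negative nuclei to pass the filter. Fitted without the filter, it had a log2 fold change of 0.45 ± 0.44 (SE), with a 95% interval of -0.42 to 1.31 and an edgeR adjusted p of 0.799. At an unadjusted p under 0.05 there were 236 genes in this comparison, and DESeq2 called 1 gene and limma voom 0.

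The difference between the g4 effects of the fractions, which is also the difference between the fraction effects of the vectors, was tested with all 28 libraries in 1 model. It was called for 0 of 4 members, beside 0% of 7197 genes. At an unadjusted p under 0.05 there were 359 genes, and DESeq2 and limma voom called 0. For Nefh the difference was -0.70 ± 0.53 (SE) on the log2 scale, with a 95% interval of -1.77 to 0.37 and an edgeR adjusted p of 0.996, so that the 5.32-fold and 3.26-fold values above are not shown to differ. Without animal 22, whose empty HA-negative library was the highest of its group, the difference was -1.30, with an edgeR p of 0.0138 before adjustment and 0.999 after it. For Nefm it was -0.53 ± 0.36, for Ina -0.29 ± 0.26 and for Nefl -0.06 ± 0.28.

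Genes that work with neurofilaments were taken as 5 lists. Of 14 tested genes for motors and linkers of axonal transport, 5 rose in empty HA-positive over HA-negative nuclei and 0 fell, beside 3.5% of all genes in each direction, with a median of 0.09 on the log2 scale against 0.01 over all genes tested. Kif5c and Kif5a, heavy chains of the kinesin that carries neurofilaments along the axon, rose by 0.60 ± 0.11 and 0.64 ± 0.14 (SE), with edgeR adjusted p of 0.000606 and 0.00322. Kif1a, a motor of synaptic vesicle precursors, rose by 0.50 ± 0.14 and Myo5a, a myosin that binds the light subunit, by 0.40 ± 0.12. Without the empty library of animal 21, 3 of 14 rose. With g4, 3 of 14 rose (Myo5a, Klc2 and Kif5a) and 0 fell, beside 3.32% and 3.08% of all genes, with a median of 0.21. Kif5a was 421 ± 78.6 CPM in empty HA-positive and 271 ± 46.6 CPM in empty HA-negative nuclei (SD, n = 7).

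Of 14 tested genes for axonal spectrins, ankyrins and nodes, 1 rose with either vector and 0 fell, with medians of -0.13 and 0.01, against 3.5% and 3.32% of all genes called higher. Without the empty library of animal 21, 2 rose with the empty vector, and without the g4 library of animal 19, 2 rose with g4. That gene was Ank1, an ankyrin that ties membrane proteins to spectrin. It ranged from 100 to 252 CPM in empty HA-positive and from 16.7 to 33.8 CPM in empty HA-negative nuclei. The groups did not overlap, as was so in that direction for 1.32% of the 5538 genes tested. Its log2 fold change was 2.48 ± 0.25 (SE) with the empty vector and 1.71 ± 0.29 with g4, with edgeR adjusted p of 5.44e-08 and 0.000179. Ank1 and Nefh thus had fitted values of like size in both vectors.

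Of 15 tested tubulin and microtubule-associated genes, 2 rose and 1 fell with each vector, with medians of -0.02 and -0.01. Over all genes tested, 3.5% were called in each direction with the empty vector. With g4, 3.32% were called higher and 3.08% lower. In the empty vector, 1 rose without the library of animal 21, and in g4, 3 rose without that of animal 19. Map1a, a microtubule-associated protein of mature neurons, rose by 0.51 ± 0.11 (SE) with the empty vector and 0.41 ± 0.13 with g4. Tubb4a, a beta-tubulin plentiful in oligodendrocytes, fell by 0.67 ± 0.16 and 0.61 ± 0.14. Whether it fell with the oligodendrocyte markers above was not tested. Of 14 tested genes for neurofilament kinases, chaperones and turnover, 0 passed the test with either vector, with medians of -0.22 and -0.15. Among those with the smallest p with the empty vector was Trim2, a ubiquitin ligase of the light subunit, at 0.34 ± 0.15 (SE), with an edgeR adjusted p of 0.182. Of 8 other intermediate filament genes, 0 had the counts to be tested with the empty vector and 1 with g4, Synm, at 0.42 ± 0.42 (adjusted p 0.686). None of the genes on the 5 lists was called between the vectors in either fraction, or for the difference between fractions.

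**Figure D4:**
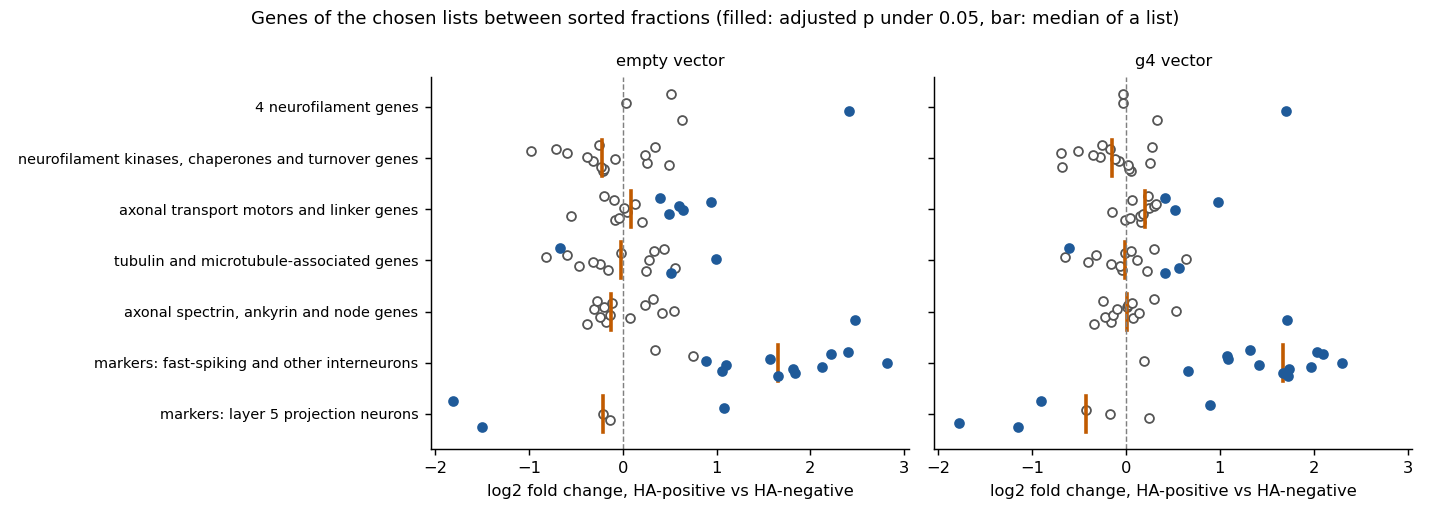
Log2 fold change of HA-positive against HA-negative nuclei (horizontal axis) for the tested genes of each list (rows), with the empty vector on the left and g4 on the right. Filled points passed an adjusted p of 0.05 by edgeR, and bars mark the list's median, such as 1.66 and 1.67 for the interneuron markers.

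The genes whose levels most resembled each member over the 28 libraries were ranked by Pearson's r of log2(CPM + 2). They were taken from the other genes with a mean of at least 50 CPM, 2868 for Nefh and 2867 for the other members. The libraries share animals and depth, and the fractions differ, so r is a description, and the value after the group means were subtracted stands beside it. Among the 5 genes most like Nefh were Srgap3 (r 0.85, or 0.47 with group means subtracted), Ank1 (0.84 and 0.34), Thy1 (0.83 and 0.64) and Map1a (0.81 and 0.57). Thy1 encodes a surface protein of neurons. Of these, Thy1 stood first and Ank1 fell to place 100 once group means were subtracted. With animal 19's HA-positive g4 library left out, r of these 4 genes was 0.81 to 0.85.

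**Figure D5:**
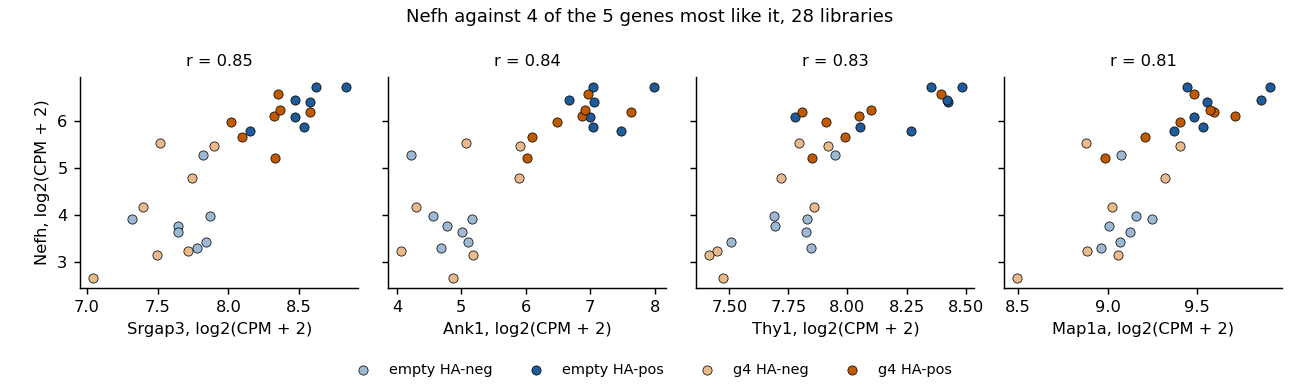
Nefh (vertical axis) against 4 of the 5 genes most like it (horizontal axes), both as log2(CPM + 2), with 1 point per library and colours for the 4 groups. Each r over 28 libraries, from 0.81 to 0.85, spans the gap between HA-positive and HA-negative libraries.

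The 5 genes most like Ina included Slc38a1 (0.77, or 0.56 with group means subtracted), Atp1b1 (0.73 and 0.56), Ttbk2 (0.71 and 0.51) and Kif5a (0.71 and 0.49). For Nefl they were Add2 (0.68 and 0.75), Camta2 (0.64 and 0.71), Ccpg1 (0.63 and 0.73), Setd5 (0.61 and 0.68) and Mphosph8 (0.61 and 0.63). These values moved with 1 library, the empty HA-positive one of animal 21, in which Nefl was lowest: without it, r was 0.44 for Add2, 0.41 for Camta2, 0.33 for Ccpg1, 0.27 for Setd5 and 0.30 for Mphosph8. For Nefm they were Rpl3 (0.66 and 0.63), Kif21a (0.66 and 0.64), Scn8a (0.64 and 0.56), Slc22a17 (0.62 and 0.69) and Cdc42bpb (0.61 and 0.55). Without that library, in which Nefm was highest, r was 0.54 to 0.66 for these 5. None of the members was among the 5 genes most like another. The highest r between members was 0.58, for Nefh and Ina, or 0.14 with group means subtracted, and the lowest was -0.21, for Nefm and Nefl.

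Within a group, the members did not detectably follow each other from animal to animal. Over the 6 pairs in the 4 groups, 24 relations were tested on 7 libraries each, and 0 passed Benjamini-Hochberg adjustment. The lowest Pearson p was for Nefm and Nefl in empty HA-negative nuclei, with r 0.78, an exact permutation p of 0.0431 (adjusted 0.728), Spearman's rho 0.68 and r 0.47 without the 2 libraries farthest from the median of Nefm. The lowest Spearman p was for Nefl and Ina in empty HA-positive nuclei, with rho -0.86, an exact permutation p of 0.0238 (adjusted 0.571) and r -0.60, or -0.90 without the 2 libraries farthest from the median of Nefl. In empty HA-positive nuclei, animal 21 had the highest Nefm, at 215 CPM from 78 counts, and the lowest Nefl, at 60.7 CPM from 22 counts. That library had 8687 detected genes, the fewest of the 28. Without it, r of Nefm and Nefl in that group was 0.42 in place of -0.53, and r of Nefl and Ina was -0.92 (n = 6).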

How the data were processed

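RNA of sorted nuclei was sequenced in 28 libraries, 7 per group. The tables deposited by the authors hold raw counts per gene, per the labels, 1 column per library. The genome build is GRCm38, per the submitters' processing notes. Aligner, counting program and strand setting: not given in the sources used here. Neither table held a 0, so cells without a value were read as 0, and the 1 entry of 41550 without a gene name was dropped (0% of counts). For 3 animals the title's number was 1 lower than that in the column name, and the descriptions tied samples to columns.

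Counts were tested with the robust quasi-likelihood fit of edgeR 4.0.16 under R 4.3.3 (low counts removed by filterByExpr, TMM scaling, two-sided, Benjamini-Hochberg, call at an adjusted p under 0.05) on the groups compared. Replicates are separate animals. Same-numbered libraries come from the same animal, so the animal was a block in an alternative fit. Their deviations from the group means correlated little, with medians of 0.0187 to 0.0504 over the comparisons. DESeq2 1.42.0 and limma 3.58.1 (voom) were alternatives, as were other scalings, no filter and leaving out libraries. Relations used exact permutation tests in scipy 1.17.1. The procedure was tested on simulated data.

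Gene models, lengths and sequences come from the GENCODE annotation of GRCm38. All 4 members are named, and of each list at most 4 called genes with the smallest p, or 2 where none was called, and the 5 genes most like each member. A few genes that this rule selects are not reported here. The members and lists were chosen with earlier results of these data known.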

Additional observations from a re-analysis of the deposited data

Results flagged for a closer look

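Each group of 7 libraries was checked for a highest or lowest library set apart from its neighbour by more of the group's range than Dixon's 95% critical value, for 4 genes in 4 groups (16 checks). Chance passes about 1 in 20 such checks, and 2 passed. In empty HA-negative nuclei, Nefh was 37.05 CPM in animal 22, and the next library was at 13.7 CPM. Without that library the group mean was 10.9 ± 2.35 CPM (SD, n = 6) in place of 14.6 ± 10.1 CPM (n = 7). The value of animal 22 came from 20 counts. In g4 HA-positive nuclei, Ina was 203.3 CPM in animal 21, and the next library was at 147 CPM. Without it the group mean was 129 ± 15 CPM (SD, n = 6) in place of 139 ± 31.3 CPM (n = 7).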

How the results depend on the processing

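The 2 calls of Nefh between the fractions held in 33 of 33 alternatives, with log2 fold changes of 2.24 to 2.89 and adjusted p-values of 8.46e-10 to 0.000408 with the empty vector, and 1.50 to 2.26 and 3.43e-05 to 0.032 with g4. Of 309 alternative values of the members, 280 kept their direction and their side of the threshold. Ina with the empty vector passed the threshold with DESeq2 (0.63), limma voom (0.67), all 28 libraries in 1 model (0.62) and in 1 fit that left out an animal (range 0.48 to 0.75). All 25 reversals were of uncalled values near 0. Between the vectors in HA-negative nuclei, Nefm became -0.0946 with limma voom, -0.0058 without TMM factors, -0.0023 with upper quartile factors and -0.0123 with the animal as a block, and leaving out an animal gave -0.14 to 0.16, and -0.0200 to 0.19 for Ina. Between the empty fractions, Nefl became -0.0200 with limma voom, -0.0280 with upper quartile factors and -0.0082 without the filter, and leaving out an animal gave -0.0402 to 0.15. Between the g4 fractions, Nefm became 0.0824 with limma voom and 0.0616 without the library under 10000 genes, and -0.13 to 0.0902 with an animal left out. There Nefl became 0.0033 without animal 19's HA-positive g4 library, and -0.21 to 0.0666 with an animal left out. For the difference of g4 effects, Nefl was -0.17 to 0.0341 with an animal left out. The cause was not tested.

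Counts of called genes moved more. For the vectors in HA-positive nuclei, 3 became 11 with DESeq2, 28 without the filter, 1 with the animal block, 8 with all 28 libraries, 0 without the libraries under 10000 genes and 5 without animal 19's HA-positive g4 library, and 1 to 4 with an animal left out. In HA-negative nuclei, 0 became 1 with DESeq2. For the empty fractions, 388 became 661 without the filter and 612 with all 28 libraries, and 251 (without animal 19) to 371 with an animal left out. For the g4 fractions, 401 became 259 without TMM factors and 218 to 422 with an animal left out, with 218, 224 and 241 without animals 20, 21 and 22. The difference of g4 effects went from 0 to 3 genes without the filter. With the animal as a block, Nefh between the fractions was 2.52 with the empty vector and 1.86 with g4, and no member's call changed.

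All 16 group levels of the members moved by less than 1 SD without TMM factors. Of 24 relations, 3 changed sign without them, and none of these passed the test: Nefh and Ina in empty HA-positive (-0.33) and g4 HA-positive nuclei (-0.27), and Nefh and Nefl in g4 HA-negative nuclei (-0.12). With the shorter Nefm transcript, the length-scaled level of Nefm rose to 22 to 32.7 CPM per kilobase over the groups. Leaving out libraries under 10000 genes was not run for HA-negative nuclei, which had none. Low counts limit Nefh in HA-negative nuclei, at 3 to 24 per library.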
